A study of Mus musculus with 15 samples.

Results

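Pro-resolving lipids made from docosahexaenoic acid and related fatty acids act on a small set of G protein-coupled receptors, and pigment epithelium-derived factor (PEDF, gene Serpinf1) has been linked to their synthesis in the cornea through its receptor Pnpla2, which releases fatty acids from lipids. The 10 genes followed here are 8 such receptors (Cmklr1, Gpr18, Gpr37, Gpr37l1, Ltb4r1, Fpr1, Fpr2 and Lgr6) with Serpinf1 and Pnpla2, chosen by name and found by gene identifier among the 55573 genes of the count table. They were compared in 15 mouse trigeminal ganglia (TG), the ganglia that hold the cell bodies of the corneal sensory nerves. All 15 ganglia came from male CD1 mice of 10 weeks whose right cornea had been injured by removal of the epithelium and anterior stroma. The eyes then received vehicle, RvD6-standard (resolvin D6) or RvD6-isomer, its stereoisomer, topically 3 times per day, and the right TG was taken on day 12, with 5 samples in each group. The isomer was isolated from pooled tears and culture medium of injured corneas, the dose behind each library is not given in the labels, and there was no uninjured group. The labels do not say that each library is a separate mouse, so the p-values measure the spread between these samples.

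Background on these receptors comes mostly from leukocytes and glia. Fpr1 detects bacterial formyl peptides, Fpr2 is the lipoxin A4 and annexin A1 receptor to which resolvin D1 was also assigned, and Ltb4r1 is the high-affinity leukotriene B4 receptor that resolvin E1 also binds; all are known from neutrophils and monocytes. Cmklr1 is the receptor for chemerin and resolvin E1, Gpr18 has been assigned to resolvin D2, and Lgr6, a receptor for the R-spondins, has been assigned to maresin 1. Gpr37 and Gpr37l1 are related glial receptors for which prosaposin has been proposed as a ligand.

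Total counts were 4125962 to 9903396 per sample (median 7756538). All 8 sensory neuron markers were read in every sample, with a summed level of 8941 to 10071 TPM with vehicle, 5326 to 8616 TPM with RvD6-standard and 8969 to 10819 TPM with RvD6-isomer. TPM are reads per exonic length, scaled to the same total in every sample. The fold changes below use other scale factors, so TPM and fold changes can order the groups differently. In bulk tissue fewer cells of a type and less RNA per cell cannot be told apart. Some libraries stood apart in markers of other cells. The 8 neutrophil markers summed to 185 to 798 TPM with vehicle, to 1108 to 3780 TPM with RvD6-standard and to 90.0 to 210 TPM in RvD6-isomer replicates 11 to 14, but to 3862 TPM in RvD6-isomer replicate 15. The 6 skeletal muscle markers summed to 18.5 to 179 TPM with vehicle, 89.1 to 2556 TPM with RvD6-standard and 11.7 to 38.9 TPM with RvD6-isomer.

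Expression in the ganglion was counted first. A gene was taken as expressed where it passed the low-count filter of edgeR, which asks for a count of 10 scaled to library size (1.29 CPM) in at least 5 samples. By this rule 6 of the 8 receptors were expressed, all but Gpr18 and Cmklr1, as were Serpinf1 and Pnpla2. The same number, 6, had a mean of at least 1 TPM over the 15 samples, with Gpr18 in place of Lgr6. Only 2 receptors, Gpr37l1 and Gpr37, had at least 10 reads in every sample. For scale, 1738 olfactory and vomeronasal receptor genes, which a ganglion is not known for, included 5 (0.288%) that passed the same filter, and their 99th percentile was 0.228 TPM.

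The levels spanned almost the whole range of the tested genes. Gpr37l1 was the most abundant, at 300.7 ± 54.6 TPM (SD, n = 15) with 190 to 391 TPM in single samples, above 97.5% of the genes tested. Serpinf1 followed at 133 ± 25.6 TPM, Pnpla2 at 15.7 ± 7.29 TPM and Gpr37 at 6.99 ± 2.02 TPM. Each of the first 3 exceeded the next gene in 15 of 15 samples. Mean TPM was 43.0 times higher for Gpr37l1 than for its relative Gpr37.

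Below Gpr37 the order was not firm. Fpr1 averaged 5.80 ± 6.25 TPM, Ltb4r1 5.37 ± 6.79 TPM and Fpr2 4.44 ± 4.76 TPM, with SDs as large as the means. Gpr37 exceeded Fpr1 in 11 samples, Fpr1 exceeded Ltb4r1 in 10 and Ltb4r1 exceeded Fpr2 in 6 of the 15, so these neighbours did not differ beyond their spread. Gpr18, at 1.04 ± 1.02 TPM, exceeded Lgr6, at 0.631 ± 0.808 TPM, in 8 samples. Gpr18 rested on 75 reads in 10 samples and Lgr6 on 194 reads in 12 samples.

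**Figure D1:**
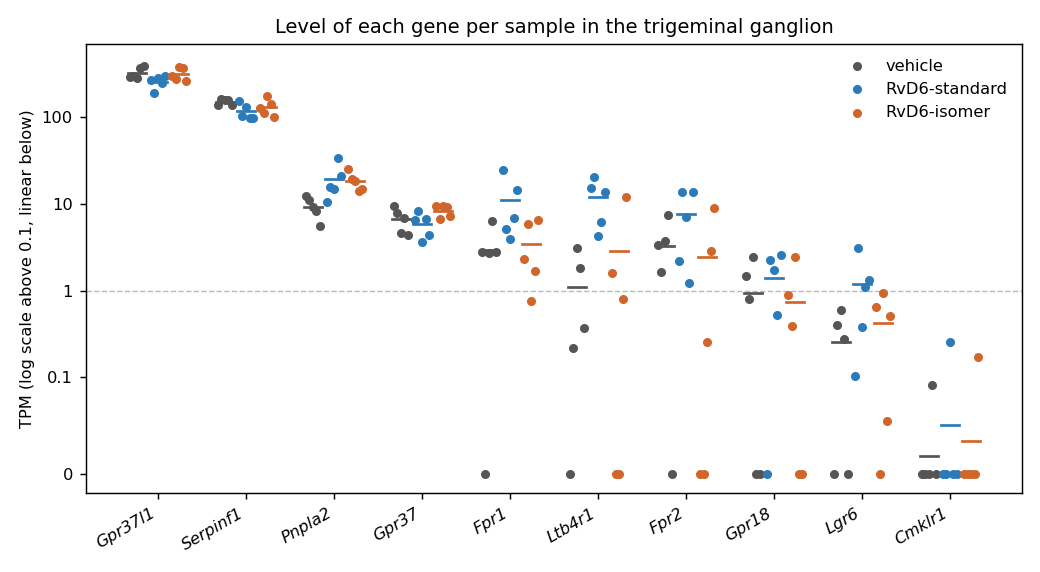
Points give the TPM of each gene in each of the 15 samples, coloured by group, on an axis that is logarithmic above 0.1 and linear below, with short lines for the group means and a dashed line at 1 TPM. Gpr37l1 and Serpinf1 lie near 100 TPM or above in every sample, whereas Fpr1, Ltb4r1, Fpr2, Gpr18, Lgr6 and Cmklr1 reach 0 in at least 1 sample.

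Cmklr1 was at the limit of detection. It had 4 reads in all, 1 in vehicle replicate 4, 2 in RvD6-standard replicate 8 and 1 in RvD6-isomer replicate 15, and 0 in the other 12 samples. Its mean of 0.0345 TPM was below that of every gene that passed the filter. Chemerin (Rarres2), the protein ligand of Cmklr1, was read at 33.2, 31.2 and 28.4 TPM on average with vehicle, RvD6-standard and RvD6-isomer. A count of 0 allows up to 3 reads, which is 0.215 TPM for Cmklr1 in vehicle replicate 1. This limit covers counting error only, whereas the edgeR intervals given below include the spread between samples.

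In vehicle samples alone, 5 of the 8 receptors had a mean of at least 1 TPM and 2 reached the filter in all 5 samples. Ltb4r1 reached it in 1 vehicle sample, 5 RvD6-standard samples and 1 RvD6-isomer sample, and so was tested because of its level after RvD6-standard. Fpr1 reached it in 4, 5 and 2 samples of these groups, Fpr2 in 3, 3 and 2, and Lgr6 in 1, 3 and 3. A difference in a gene that entered the test through the group where it is high is expected from the selection, and the counts of called genes below are to be read with that limit.

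Each lipid was then compared with vehicle, and the lipids with each other, for the 8 genes tested, with edgeR's quasi-likelihood test over 16567 genes and Benjamini-Hochberg adjustment. None of the 8 passed an adjusted p of 0.05 in any comparison. For RvD6-isomer against vehicle, 0 of 8 were called beside 0.67% of all genes, and at an unadjusted p under 0.05 there were 2 (Pnpla2 higher, Serpinf1 lower) beside 8.69% higher and 7.3% lower of all genes. For RvD6-standard against vehicle, 0 of 8 were called beside 0% of all genes, and unadjusted there were 3, all higher (Pnpla2, Ltb4r1 and Fpr1), beside 7.63% higher. For RvD6-isomer against RvD6-standard, 0 of 8 were called beside 0.235%, and unadjusted there was 1 (Fpr1 lower) beside 4.64% lower. DESeq2 with all 15 samples called Pnpla2 after RvD6-standard (1 of 8, beside 1.92% of all genes), and 0 of the 8 for RvD6-isomer against vehicle (beside 7.57%, with no adjusted p for 4 of the 8) and between the lipids (beside 0.985%). With only the groups compared in the fit, DESeq2 called Pnpla2 after RvD6-isomer (1 of 8, beside 7.76%) and Pnpla2 and Ltb4r1 after RvD6-standard (2 of 8, beside 3.51%).

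**Figure D2:**
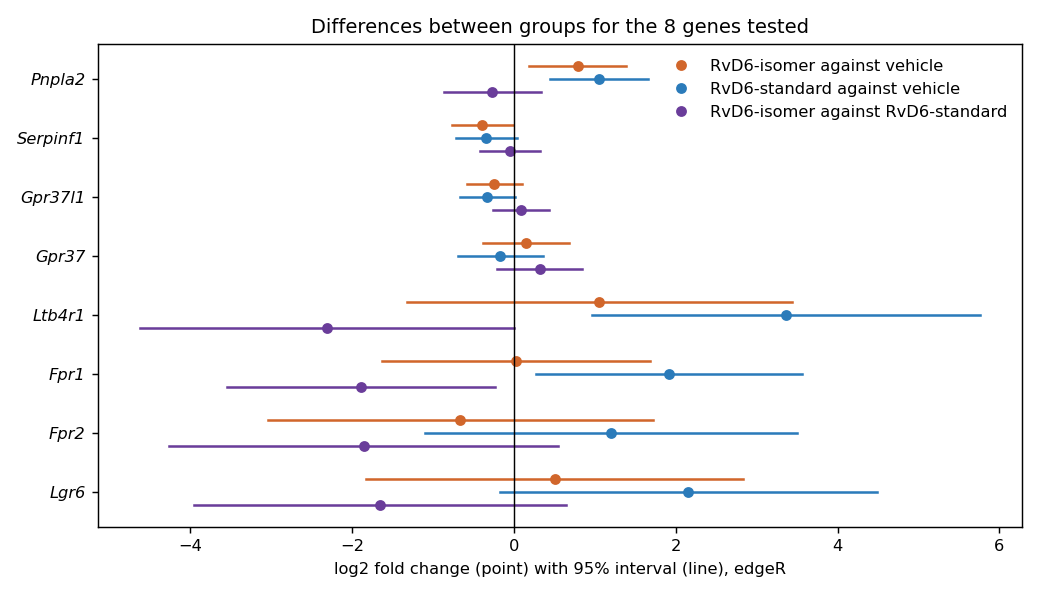
Points are log2 fold changes from edgeR for the 8 genes tested and lines their 95% intervals, in 3 colours for the 3 comparisons. Both lipids lie above 0 for Pnpla2, the intervals of Gpr37 and Gpr37l1 span 0 and are short, and those of the 4 sparsely read receptors are several log2 units wide.

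Pnpla2 (chromosome 7, 141455198 to 141460743), which encodes adipose triglyceride lipase and binds PEDF, had more reads after both lipids, although the adjusted p of edgeR stayed above 0.05. Its normalised counts (each count over its library's DESeq2 size factor) with vehicle were 110, 98.8, 92.3, 77.7 and 52.6 in replicates 1 to 5. With RvD6-standard they were 105, 139, 144, 321 and 199, and with RvD6-isomer 195, 160, 150, 118 and 125. Every RvD6-isomer sample lay above every vehicle sample, and 4 of 5 RvD6-standard samples did. Groups that did not overlap in this way, with RvD6-isomer higher, made up 2.48% of all genes tested.

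The fold change of Pnpla2 was 2.08 for RvD6-standard (log2 1.05, SE 0.29, 95% interval 0.45 to 1.66) and 1.72 for RvD6-isomer (log2 0.79, SE 0.29, 95% interval 0.18 to 1.39). For RvD6-standard the unadjusted p was 0.0018 and the adjusted p 0.156 by edgeR, against an adjusted p of 0.0296 by DESeq2. For RvD6-isomer the edgeR adjusted p was 0.186, and the DESeq2 adjusted p was 0.0782 with all samples and 0.0308 with the groups compared alone. With any 1 sample left out the log2 fold change stayed between 0.74 and 1.20 for RvD6-standard and between 0.66 and 0.89 for RvD6-isomer.

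The highest Pnpla2 value, in RvD6-standard replicate 9, came from the library with the most skeletal muscle marker signal (2556 TPM), and without it the log2 fold change was 0.74 (edgeR adjusted p = 0.358). RvD6-standard replicate 8, next in muscle markers at 1785 TPM, had 144 normalised counts of Pnpla2. RvD6-standard replicate 10, at 293 TPM, had 199. Muscle and fat both express Pnpla2. All 6 muscle markers were higher after RvD6-standard than with vehicle at an unadjusted p under 0.05, beside 7.63% of all genes (median log2 fold change 4.09). After adjustment 0 were called by edgeR and 6 by DESeq2, beside 0% and 1.92% of all genes. EdgeR called all 6 lower in RvD6-isomer than in RvD6-standard, beside 0.235% of all genes in either direction. In the RvD6-isomer group, where Pnpla2 was above vehicle in 5 of 5 samples, the muscle markers summed to 11.7 to 38.9 TPM. There 0 of the 6 were higher than vehicle at an unadjusted p under 0.05, beside 8.69% of all genes. Of the 6 adipocyte markers 2 passed the filter, Lep was at 0 in all 15 samples, and the sum was 0 to 6.42 TPM with vehicle, 3.97 to 27.7 TPM with RvD6-standard and 0 to 40.6 TPM with RvD6-isomer. The part of these cells in the Pnpla2 difference was not tested.

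Serpinf1 (chromosome 11, 75409769 to 75422701), the gene of the secreted neurotrophic protein PEDF itself, was lower on average after both lipids, without passing the test. The normalised counts with vehicle were 962, 1109, 1234, 1152 and 1014. With RvD6-standard they were 1199, 714, 1017, 711 and 719, and with RvD6-isomer 769, 724, 1114, 909 and 666. Below every vehicle sample lay 3 of 5 RvD6-standard and 4 of 5 RvD6-isomer samples, so the groups overlapped. The log2 fold change was −0.34 (SE 0.18, edgeR adjusted p = 0.417) for RvD6-standard and −0.39 (SE 0.18, unadjusted p 0.041, edgeR adjusted p = 0.289) for RvD6-isomer.

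Gpr37l1 (chromosome 1, 135160234 to 135167681), the abundant glial receptor, was lower on average after both lipids, without passing the test. Its normalised counts were 1957, 2005, 2128, 2611 and 2779 with vehicle, 1984, 1265, 2083, 1750 and 2132 with RvD6-standard, and 1737, 1744, 2312, 2292 and 1648 with RvD6-isomer. Vehicle replicates 4 and 5 were the highest of all 15. Below every vehicle sample lay 2 of 5 RvD6-standard and 3 of 5 RvD6-isomer samples, so the groups overlapped. The log2 fold change was −0.33 (95% interval −0.67 to 0.01) for RvD6-standard and −0.24 (95% interval −0.58 to 0.10) for RvD6-isomer, with edgeR adjusted p of 0.388 and 0.495. In TPM, Gpr37l1 averaged 327, 258 and 317 in the vehicle, RvD6-standard and RvD6-isomer groups. The 6 satellite glia markers summed to 732 to 1134 TPM, 707 to 1157 TPM and 740 to 1102 TPM in the same order. The 6 myelinating Schwann cell markers summed to 9559 to 13583 TPM, 8477 to 11400 TPM and 8670 to 14710 TPM. The part of these cells in the Gpr37l1 values was not tested.

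Gpr37 (chromosome 6, 25665878 to 25690729) had 170, 141, 92.3, 132 and 83.1 normalised counts with vehicle, 129, 147, 71.5, 126 and 82.5 with RvD6-standard, and 147, 111, 155, 152 and 124 with RvD6-isomer. The ranges overlapped. Its log2 fold change was −0.17 (95% interval −0.69 to 0.36) for RvD6-standard and 0.15 (95% interval −0.38 to 0.68) for RvD6-isomer, with edgeR adjusted p of 0.82 and 0.823.

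**Figure D3:**
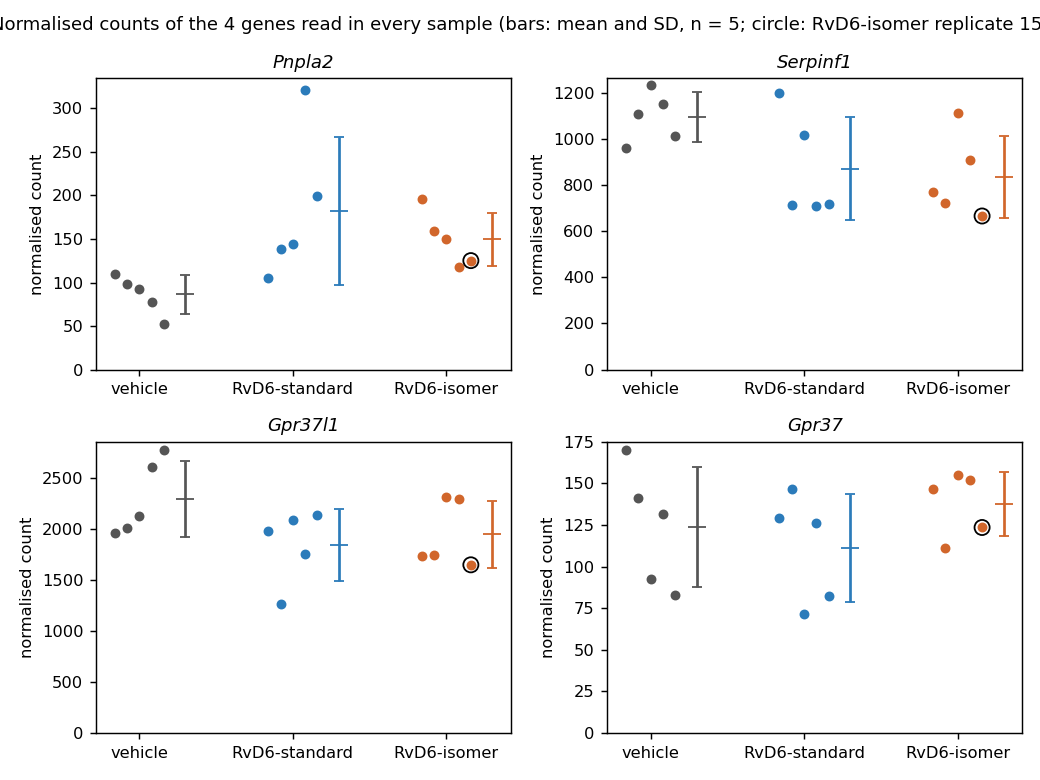
Each panel plots the normalised counts of 1 of the 4 genes read in every sample, by group, with the mean and SD (n = 5) beside the points and a circle around RvD6-isomer replicate 15. The 5 RvD6-isomer samples of Pnpla2 lie above the 5 vehicle samples, whereas the groups overlap for Serpinf1, Gpr37l1 and Gpr37.

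The leukocyte receptors Ltb4r1, Fpr1 and Fpr2 are shown with the 250 bases before their start in the RefSeq annotation of GRCm38.p6, as genes known from the same blood cells. RefSeq promoters were found for 10 of the 10 genes. The motifs were picked after the values and sequences had been seen: the PU box (GAGGAA, bound by the myeloid factor PU.1), the GC box (GGGCGG) and the TATA box (TATAAA), each sought on both strands. The PU box letters occurred in 23.3%, the GC box letters in 32.7% and the TATA box letters in 12.4% of 32851 promoters of this length, and in 3, 4 and 2 of the 10 here. A match is a run of letters and not a measured site. Capitals mark the PU box and the GC box, and Pnpla2 is added for contrast. The windows are chr14:55765712-55765961 (plus strand) for Ltb4r1, chr17:17883940-17884189 (minus strand) for Fpr1, chr17:17887574-17887823 (plus strand) for Fpr2 and chr7:141454938-141455187 (plus strand) for Pnpla2, each written 5′ to 3′ along its gene.
Ltb4r1: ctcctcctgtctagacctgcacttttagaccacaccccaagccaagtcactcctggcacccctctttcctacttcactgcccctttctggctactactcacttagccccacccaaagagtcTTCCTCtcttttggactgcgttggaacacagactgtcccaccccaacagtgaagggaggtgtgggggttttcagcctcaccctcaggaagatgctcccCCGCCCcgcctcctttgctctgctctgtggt
Fpr1: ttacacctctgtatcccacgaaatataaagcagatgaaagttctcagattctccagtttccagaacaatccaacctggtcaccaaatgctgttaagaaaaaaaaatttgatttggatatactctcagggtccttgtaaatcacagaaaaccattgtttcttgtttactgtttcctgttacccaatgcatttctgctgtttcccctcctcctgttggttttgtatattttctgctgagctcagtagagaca
Fpr2: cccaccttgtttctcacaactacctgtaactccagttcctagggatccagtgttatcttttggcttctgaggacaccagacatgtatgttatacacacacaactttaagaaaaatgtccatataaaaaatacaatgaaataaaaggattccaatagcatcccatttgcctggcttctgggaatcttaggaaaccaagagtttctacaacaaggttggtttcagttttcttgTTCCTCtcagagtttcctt
Pnpla2: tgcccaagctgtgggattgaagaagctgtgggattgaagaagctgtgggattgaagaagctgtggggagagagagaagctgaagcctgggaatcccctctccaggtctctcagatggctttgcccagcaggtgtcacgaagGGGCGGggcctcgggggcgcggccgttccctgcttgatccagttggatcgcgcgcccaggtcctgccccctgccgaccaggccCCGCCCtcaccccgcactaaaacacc
Ltb4r1 held 1 PU box and 1 GC box, Fpr2 held 1 PU box, Fpr1 held neither, and Pnpla2 held 2 GC boxes. The TATA box letters occurred once each in Fpr1 and Fpr2 and not in the other 2 windows. Fpr1 and Fpr2 had 1 and 0 CpG dinucleotides, Ltb4r1 had 3 and Pnpla2 had 12, with a median of 6 over all promoters.

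Fpr1 and Fpr2 lie side by side on chromosome 17 of GRCm38, 3883 bases apart and on opposite strands, at 17876471 to 17883940 and 17887824 to 17893952. Of the exonic bases of Fpr2, 48 (3.7%) are shared with Fpr3, and reads there were not counted for either gene; Fpr3 itself had 1 read in the 15 samples. Ltb4r1 lies on chromosome 14 at 55765962 to 55768494, 823 bases after Ltb4r2, which had 17 reads in all. No exonic base of the other 9 genes is shared with another gene.

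Ltb4r1 was read most after RvD6-standard. The normalised counts were 0, 0.89, 14.4, 7.87 and 1.64 with vehicle and 69.6, 84.7, 19.6, 27.3 and 60.4 with RvD6-standard. With RvD6-isomer they were 5.65, 0, 0, 3.10 and 47.1, the last in replicate 15, the library with the highest neutrophil marker sum. All 5 RvD6-standard samples lay above all 5 vehicle samples, a pattern of 2.25% of all genes, in a gene that was tested because of that group.

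The log2 fold change of Ltb4r1 for RvD6-standard against vehicle was 3.36 (SE 1.14, 95% interval 0.96 to 5.76, edgeR adjusted p = 0.219), and DESeq2 gave an adjusted p of 0.0756 with all samples and 0.00216 with the groups compared alone. Without vehicle replicate 3 it was 4.32. For RvD6-isomer against vehicle it was 1.06 (SE 1.13, edgeR adjusted p = 0.702) and became −1.23 without RvD6-isomer replicate 15 and 2.01 without vehicle replicate 3. For RvD6-isomer against RvD6-standard it was −2.31 (SE 1.10, edgeR adjusted p = 0.568), and −4.59 without replicate 15 (edgeR adjusted p = 0.0735).

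Fpr1 had 10.8, 0, 12.0, 26.6 and 11.5 normalised counts with vehicle, 105.5, 19.8, 16.8, 28.5 and 60.4 with RvD6-standard, and 7.91, 21.6, 2.74, 6.21 and 24.4 with RvD6-isomer. Only 3 RvD6-standard samples lay above all vehicle samples. The log2 fold change was 1.91 (SE 0.78, edgeR adjusted p = 0.303) for RvD6-standard and 0.02 (SE 0.79, edgeR adjusted p = 0.994) for RvD6-isomer, against vehicle.

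Fpr2 had 13.0, 6.23, 16.05, 30.5 and 0 normalised counts with vehicle, 9.38, 52.3, 29.4, 4.96 and 56.4 with RvD6-standard, and 0, 0, 0.91, 10.3 and 32.5 with RvD6-isomer. Its groups overlapped, with 2 RvD6-standard samples above all vehicle samples. The log2 fold change was 1.20 (SE 1.10, edgeR adjusted p = 0.672) for RvD6-standard and −0.66 (SE 1.13, edgeR adjusted p = 0.828) for RvD6-isomer. Without RvD6-isomer replicate 15 it was −2.20 for RvD6-isomer against vehicle and −3.40 against RvD6-standard.

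The neutrophil markers are given beside these receptors. The 6 libraries with the highest sums also held the most Ltb4r1, but not always the most Fpr1 or Fpr2: RvD6-standard replicate 6, with 2548 TPM, had 9.38 normalised counts of Fpr2, below vehicle replicate 4 at 30.5. All 8 markers were higher after RvD6-standard than with vehicle at an unadjusted p under 0.05, beside 7.63% of all genes. In all 8 the groups did not overlap, beside 2.25% of all genes. After adjustment 0 were called by edgeR and 3 by DESeq2, beside 0% and 1.92% of all genes. The 6 granulocyte precursor markers (such as Elane, Mpo and Ngp) summed to 89.9 to 553 TPM with vehicle, 628 to 2153 TPM with RvD6-standard and 54.2 to 150 TPM with RvD6-isomer, except 1753 TPM in replicate 15. The 8 macrophage markers summed to 97.0 to 137 TPM, 112 to 197 TPM and 87.9 to 185 TPM. No neutrophil or granulocyte precursor marker was at 0 in a whole group. The part of these cells in the values of Ltb4r1, Fpr1 and Fpr2 was not tested.

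**Figure D4:**
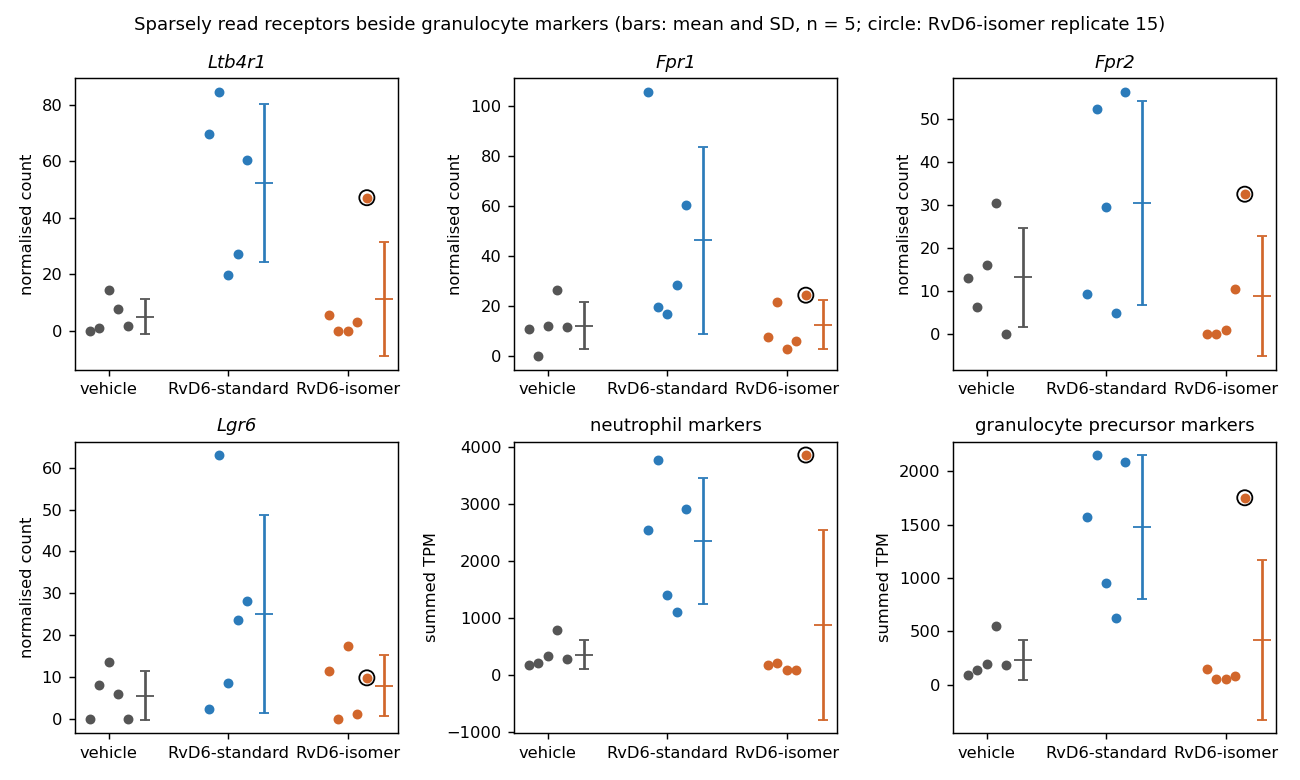
Panels plot the normalised counts of Ltb4r1, Fpr1, Fpr2 and Lgr6 and the summed TPM of the neutrophil and granulocyte precursor markers by group, with mean and SD (n = 5) and a circle around RvD6-isomer replicate 15. For Ltb4r1 and both marker sums the 5 RvD6-standard samples lie above the 5 vehicle samples. The circled sample lies within the RvD6-standard range for Ltb4r1 and the granulocyte precursor markers and above it, at 3862 TPM, for the neutrophil markers.

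Lgr6 lies on chromosome 1 at 134983301 to 135105276, 54957 bases from Gpr37l1. It had 0, 8.01, 13.6, 5.90 and 0 normalised counts with vehicle, 2.34, 63.1, 8.41, 23.6 and 28.2 with RvD6-standard, and 11.3, 0, 17.3, 1.03 and 9.75 with RvD6-isomer. The groups overlapped, and unlike Ltb4r1, Fpr1 and Fpr2, Lgr6 was not at its group's highest value in RvD6-isomer replicate 15. The log2 fold change was 2.15 (SE 1.11, edgeR adjusted p = 0.411) for RvD6-standard and 0.50 (SE 1.11, edgeR adjusted p = 0.872) for RvD6-isomer. For RvD6-standard it was 1.48 without RvD6-standard replicate 7 and 2.82 without vehicle replicate 3, which also took the RvD6-isomer value to 1.18, and without RvD6-standard replicate 7 the difference between the lipids was −0.97. Its relatives Lgr4 and Lgr5 were better read, at 10.0 and 4.84 TPM with vehicle, and neither passed the test in any comparison.

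Gpr18 (chromosome 14, 121911253 to 121915781) lies within the span of Ubac2 without sharing an exonic base. It had 6.49, 3.56, 12.0, 0 and 0 normalised counts with vehicle, 0, 9.91, 8.41, 2.48 and 12.1 with RvD6-standard, and 3.39, 1.6, 10.0, 0 and 0 with RvD6-isomer. Every group held a sample at 0. As Gpr18 and Cmklr1 were below the filter, 6 comparisons of their group means used an exact permutation test, two-sided, whose smallest possible p is 0.00794. For Gpr18 the exact p was 0.516 for RvD6-standard and 0.603 for RvD6-isomer against vehicle and 0.302 between the lipids, all without adjustment, and no difference was detected. For Cmklr1 each group held 1 sample above 0, so the exact p had to be 1 in all 3 comparisons. The test could therefore not show a difference in Cmklr1.

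The stereoisomers formed 1 pair of compounds given on the same schedule. RvD6-isomer minus RvD6-standard gave a log2 difference of −0.27 (95% interval −0.86 to 0.33) for Pnpla2, −0.05 (−0.42 to 0.32) for Serpinf1, 0.09 (−0.25 to 0.43) for Gpr37l1 and 0.32 (−0.21 to 0.85) for Gpr37. For these 4 genes the edgeR adjusted p lay between 0.763 and 0.968, and a difference within those intervals remains possible. The difference was −2.31 (−4.62 to 0.00) for Ltb4r1, −1.89 (−3.55 to −0.24) for Fpr1, −1.86 (−4.26 to 0.55) for Fpr2 and −1.65 (−3.95 to 0.65) for Lgr6. Fpr1 had an unadjusted p of 0.0273 and an edgeR adjusted p of 0.481, so no difference between the stereoisomers passed the test. Both comparisons with vehicle share the same 5 vehicle samples.

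The ligands, relatives and signal partners of these genes were read as 5 lists of 54 genes, of which 38 passed the filter. For RvD6-isomer against vehicle 2 of the 38 were called, both higher (5.26%, beside 0.67% of all genes), and for the other comparisons 0 were called. The lists were chosen with earlier results of these data known, so the larger share cannot be read as an excess among these genes. At an unadjusted p under 0.05 there were 6 higher and 2 lower for RvD6-isomer (beside 8.69% and 7.3% of all genes), 5 higher and 1 lower for RvD6-standard (beside 7.63% and 5.99% of all genes), and 1 higher between the lipids (beside 4.18%). DESeq2 called 4, 3 and 0 of the listed genes (beside 7.57%, 1.92% and 0.985%). These percentages are over genes with a DESeq2 adjusted p, and the listed genes that had one were not the same set as the 38. The called genes were Pnpla8, a calcium-independent phospholipase of the family of Pnpla2, and Gnai3, an inhibitory G protein subunit through which most of these receptors signal. Pnpla8 rose from 458 ± 66.0 to 790 ± 107 normalised counts (log2 0.78, SE 0.16, edgeR adjusted p = 0.0325), and Gnai3 from 409 ± 93.6 to 750 ± 72.2 (log2 0.87, SE 0.18, edgeR adjusted p = 0.0363). Each was called in 8 of 15 fits that left out 1 sample: the edgeR adjusted p of Pnpla8 lay between 0.0546 and 0.103 without any 1 of vehicle replicates 1 to 5 or RvD6-isomer replicate 11 or 14, and that of Gnai3 between 0.0733 and 0.11 without vehicle replicate 1, 2, 3 or 5 or RvD6-isomer replicate 11, 13 or 14. After RvD6-standard Pnpla8 averaged 720 ± 138 and Gnai3 642 ± 170 (SD, n = 5), with log2 fold changes of 0.64 in both (edgeR adjusted p = 0.119 and 0.174), and neither differed between the lipids by the test. The related subunits Gnai1 and Gnai2 had log2 fold changes of 0.49 and −0.33 for RvD6-isomer against vehicle (edgeR adjusted p = 0.107 and 0.445). Their DESeq2 adjusted p was 0.0212 and 0.36. With vehicle Gnai2 was at 108 TPM and Gnai3 at 40.7 TPM.

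Among the protein ligands 7 of 11 passed the filter and 0 were called by edgeR. Chemerin (Rarres2) averaged 272, 260 and 205 normalised counts with vehicle, RvD6-standard and RvD6-isomer. Its log2 fold change against vehicle was −0.08 for RvD6-standard (edgeR adjusted p = 0.902). For RvD6-isomer it was −0.41 (SE 0.19, edgeR unadjusted p 0.0475, edgeR adjusted p = 0.307). Prosaposin (Psap), proposed for Gpr37 and Gpr37l1, was at 840 TPM with vehicle, 810 TPM with RvD6-standard and 974 TPM with RvD6-isomer. In normalised counts it averaged 7106, 6951 and 7223, with log2 fold changes of −0.05 and 0.02. Annexin A1 (Anxa1), a ligand of Fpr2, had 80.1 ± 34.0 normalised counts with vehicle, 340.3 ± 138 with RvD6-standard and 168 ± 172 with RvD6-isomer, and its log2 fold change for RvD6-standard was 2.08 (SE 0.52, edgeR adjusted p = 0.125, DESeq2 adjusted p = 0.0055). Camp, a neutrophil granule peptide precursor that also acts on Fpr2, had 113 ± 109, 662 ± 307 and 241 ± 461 (log2 2.54 for RvD6-standard, edgeR adjusted p = 0.238). RvD6-isomer replicate 15 alone held 470 counts of Anxa1 and 1066 of Camp, and without it the log2 fold change for RvD6-isomer against vehicle went from 1.05 to 0.20 for Anxa1 and from 1.06 to −1.70 for Camp. R-spondin 2 (Rspo2), a ligand of Lgr6, had 132 ± 46.0, 154 ± 38.1 and 230 ± 76.9 (log2 0.80 for RvD6-isomer, edgeR adjusted p = 0.176).

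Of the 16 genes of Pnpla2 partners and lipolysis 12 passed the filter. Abhd5, its coactivator, had log2 fold changes of 0.09 for RvD6-standard and 0.20 for RvD6-isomer, and G0s2, its inhibitor, of 0.31 and 0.36, with edgeR adjusted p of 0.546 to 0.923. Plin2, which coats lipid droplets, had −0.48 and −0.42 (edgeR adjusted p = 0.361 and 0.377), and Mgll, the lipase of the last step, −0.28 and −0.50 (edgeR adjusted p = 0.412 and 0.0953). DESeq2 called Mgll lower after RvD6-isomer (adjusted p 0.0151), and its 5 RvD6-isomer samples lay below the 5 vehicle samples, a pattern of 2.4% of all genes. Among the other proposed PEDF receptors 4 of 4 passed the filter and 0 were called. The laminin receptor Rpsa was at 95.1 TPM, Plxdc2 at 23.8 TPM, Lrp6 at 4.49 TPM and Plxdc1 at 0.366 TPM with vehicle. Plxdc1 was 3.59-fold its vehicle level for RvD6-standard (unadjusted p 0.0153, edgeR adjusted p = 0.264, DESeq2 adjusted p = 0.133) and 2.83-fold for RvD6-isomer (unadjusted p 0.0418, edgeR adjusted p = 0.292). Plxdc1 had only 2 to 9 reads in single vehicle samples, below the low-count filter in each. It was thus tested through the lipid groups, where a higher level is expected from the selection.

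Across the 15 samples the genes most like each member in log2 CPM were read off as a description, with the same libraries behind every point. For Gpr37l1 they were the myelin enzyme gene Cnp (Pearson r = 0.91) and Shisa4 (0.91), and for Gpr37 Pou6f1 (0.87) and Cfap97 (0.84). For Ltb4r1 they were the neutrophil protease gene Mmp9 (0.95) and the granule gene Ngp (0.94), for Fpr1 Podxl (0.89) and Tspan32 (0.87), for Fpr2 Tgif1 (0.89) and Gm4739 (0.86), and for Lgr6 Orc6 (0.83) and Adgre5 (0.83). For Pnpla2 they were Igdcc4 (0.92) and Fam131a (0.92), and for Serpinf1 Gm14760 (0.95) and Gm9247 (0.92). Every r includes the differences between the groups. With group means removed, r with Ltb4r1 was 0.88 for Mmp9 and 0.89 for Ngp. Ltb4r1 was tested because of its level after RvD6-standard, where Mmp9 and Ngp were also highest on average.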

How the data were processed

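Raw counts of reads per gene were deposited by the authors for 15 mouse TG. Per the methods and labels, the authors made Smart-seq2 libraries from poly(A) RNA, aligned the reads with Rsubread to GRCm38 (GENCODE M22) and counted them on exons with featureCounts of Subread 1.6.5, whereas the table itself gives featureCounts 1.5.0-p1. Strand was not used, and reads on several places or genes were not counted. Symbols and exon overlaps came from GENCODE M21 of the same build, with the same identifier version for 10 of 10 genes.

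Groups followed the labels, which give no batch or pairing. Comparisons used edgeR 4.0.16 (R 4.3.3; quasi-likelihood F test) with 15 samples in 1 fit, TMM, the edgeR low-count filter (minimum count 10, minimum total 15; 16567 genes) and Benjamini-Hochberg adjustment. Normalised counts and the alternative test used DESeq2 1.42.0. Genes below the filter were compared by exact permutation (252 assignments). TPM used the exonic length of the table. Replicate pairs differed beyond counting noise (chi-square of 12.0 to 54.2 per degree of freedom), so none was a copy. The steps were tested on simulated data. Alternatives were DESeq2, 2-group fits, RLE, other filters, a length trend removed, thinning, and each sample left out. The genes, lists and comparisons were chosen with earlier results of these data known. Genes named were all 10 members, listed genes that were called, ligands, partners and markers of members, and the 2 most similar genes of each tested member by Pearson r of log2 CPM (prior count 2).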

Additional observations from a re-analysis of the deposited data

Results flagged for a closer look

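In 30 groups of 5 samples (10 genes in 3 groups), 4 held a sample whose distance to the nearest other sample took up most of the group's range, where chance would give about 1 in 20 for values without ties. Of the 4, 3 are Cmklr1 groups with 1 sample above 0, which meet the criterion by construction, so the 4 are not to be set against that rate. Ltb4r1 had 47.1 normalised counts in RvD6-isomer replicate 15, against 5.65 in the next sample of the group; the same library had 3862 TPM of neutrophil markers, and the part of that in the Ltb4r1 value was not tested. The other flags are Cmklr1 in the single sample of each group that had a read, at 0.984 normalised counts in vehicle replicate 4, 2.80 in RvD6-standard replicate 8 and 1.63 in RvD6-isomer replicate 15.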

How the results depend on the processing

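The count of genes changed for RvD6-isomer against vehicle (111) was 903 with DESeq2 and all samples, 964 with DESeq2 and the 2 groups, 315 with at least 10 counts in every sample, 62 with the length trend removed and 0 (without RvD6-isomer replicate 11) to 229 (without RvD6-standard replicate 9) with 1 sample left out, with 6 to 13 without any 1 vehicle sample. For RvD6-standard against vehicle (0) it was 369, 686, 38 with edgeR and 2 groups, 56 without a filter, 24 with at least 10 counts in every sample, 32 after thinning and 0 to 51 (without RvD6-isomer replicate 15) with 1 sample left out. For RvD6-isomer against RvD6-standard (39) it was 189, 182, 17 with edgeR and 2 groups, 59 without a filter, 23 with at least 10 counts in every sample and 2 (without RvD6-isomer replicate 11, 13 or 14) to 156 (without RvD6-isomer replicate 15) with 1 sample left out; the cause was not tested. Among the 10 genes followed, DESeq2 called 1 for RvD6-standard (Pnpla2), and with the 2 groups alone 2 (Pnpla2 and Ltb4r1) and, for RvD6-isomer, 1 (Pnpla2); all other settings called 0. The number of receptors expressed (6) was 2 where every sample needed 1 read or 10 reads, 5 after thinning, and 6 to 7 with 1 sample left out.

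Some directions turned. Thinning took Fpr1 for RvD6-isomer against vehicle to −0.0053. With 1 sample left out, the log2 fold change for RvD6-isomer against vehicle ran from −1.23 to 2.01 for Ltb4r1, −0.33 to 0.51 for Fpr1 and −0.058 to 1.18 for Lgr6. For RvD6-isomer against RvD6-standard it ran from −0.022 to 0.15 for Gpr37l1, −0.18 to 0.10 for Serpinf1 and −0.40 to 0.044 for Pnpla2. The difference in normalised counts of Cmklr1 ran from −0.197 to 0.325, −0.197 to 0.56 and −0.56 to 0.325 for RvD6-isomer against vehicle, RvD6-standard against vehicle and between the lipids, and that of Gpr18 from −3.17 to 0.493 for RvD6-isomer against vehicle. No paired analysis was possible because the groups share no replicate numbers. Cmklr1, Gpr18 and Lgr6 rest on 4, 75 and 194 reads.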
